A study of Homo sapiens with 18 samples.

Results

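The cytosolic ribosomal protein genes were described in OVCAR3, an adherent cell line of high-grade serous ovarian cancer, after treatment with antibodies. A gene was a member when its symbol was RPS or RPL followed by a number, with at most 1 closing letter A, X or L, or was RPLP0, RPLP1, RPLP2 or RPSA, in both deposited count tables. This rule uses names alone and no measured value. It found 83 members among 55765 gene symbols, of which 31 belong to the small subunit, 43 to the large subunit and 3 to the P stalk, and 6 carry a closing L that marks a second copy of another gene (among them RPL3L, RPL10L, RPL39L and RPS27L).

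The study asked whether IgA that is taken up and carried through tumour cells changes their transcription, and whether IgA against antigens of the tumour does so. Bulk RNA sequencing was deposited for 18 libraries in 6 groups of 3, as 2 count tables of 9 libraries each. The first table held cells given non-antigen-specific IgA (labelled IgA_Coated), cells given IgG (IgG_Coated) and untreated cells. The second held cells given an antibody to BDNF (OVCAR3-BDNF), cells given an antibody to TSPAN7 (OVCAR3-TSPAN7), both IgA according to the study, and its own untreated cells. According to the labels and methods, antibodies were used at 0.5 μg/mL for 24 h in RPMI medium with serum, whereas titles of the study's supplementary data name a shorter time. No group carried any other agent or any engineered allele. All 6 groups came from 1 established line, so that they stand for OVCAR3 and not for a set of tumours. The second table had no group given IgA without an antigen, and each table was compared within itself only. The labels do not say whether replicates were separate cultures. The study describes the 3 replicates of the first table as experiments and gives only a general statement on biological replicates that would cover the second, so that p-values measure the spread between these samples, part of which may be technical.

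Each cytosolic ribosome is built from ribosomal RNA and a fixed set of proteins that joins a small subunit, which reads the mRNA, to a large subunit, which makes the peptide bond. The genes of these proteins are among the most highly expressed in any dividing cell, and their mRNAs start with a run of pyrimidines, the terminal oligopyrimidine (TOP) tract, through which the mTOR kinase and the RNA-binding protein LARP1 control their translation and stability. Cells in growth make more ribosomes, and tumour cells are known for high output of them.

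The run of pyrimidines can be read around the annotated start sites of the members on which the results turn. The following windows are the 15 bases before and the 15 bases from the RefSeq start on the sense strand (GRCh38.p14), from 5′ to 3′. Capitals mark the word CTTTC, the word CTTTT, the word CTTCC and the word CTCTT, which may overlap each other, wherever they lie within the shown bases from 10 before the start onward. RPL36, RPLP2, RPS13, RPL31 and RPLP0 are members that rose with IgA, RPSA and RPS3 (the latter chosen after its values were seen) are members with log2 fold changes near 0 there, RPL27A and RPL22 are the members that fell furthest with the TSPAN7 antibody, RPL18 rose with the BDNF antibody, and RPS27L is a second copy.
RPL36: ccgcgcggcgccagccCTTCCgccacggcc
RPLP2: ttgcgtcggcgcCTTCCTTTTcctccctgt
RPS13: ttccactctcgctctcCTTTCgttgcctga
RPL31: acaatccttcgcgCTCTTCCTTTCcaactt
RPLP0: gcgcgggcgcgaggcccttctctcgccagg
RPSA: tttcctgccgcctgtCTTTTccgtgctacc
RPS3: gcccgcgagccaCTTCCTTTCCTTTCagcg
RPL27A: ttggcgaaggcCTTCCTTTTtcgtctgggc
RPL22: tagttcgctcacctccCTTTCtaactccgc
RPL18: accccagcccgttctCTCTTTCcggacctg
RPS27L: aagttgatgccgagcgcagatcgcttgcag

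These windows lie at chr19:5690280-5690309 (RPL36, plus strand), chr11:809952-809981 (RPLP2, plus), chr11:17077653-17077682 (RPS13, minus), chr2:101002274-101002303 (RPL31, plus), chr12:120201097-120201126 (RPLP0, minus), chr3:39406705-39406734 (RPSA, plus), chr11:75399503-75399532 (RPS3, plus), chr11:8682777-8682806 (RPL27A, plus), chr1:6199581-6199610 (RPL22, minus), chr19:48619164-48619193 (RPL18, minus) and chr15:63157463-63157492 (RPS27L, minus). The windows of RPLP0 and RPS27L hold none of the words and the others shown hold at least 1, as do those of RPL26, RPS16, RPS25 and RPL38, which are not shown. The window of RPLP0 still shows an unbroken run of pyrimidines across the start, which none of the 4 words matches. In the RefSeq table, 64 of the 83 members had at least 1 promoter, with 79 promoters between them. At least 1 of the 4 words lay on the sense strand from 10 bases before to 20 bases after the start in 55 of these 79 promoters (69.6%), against 5713 of all 35116 promoters in the table (16.3%). CTTTC alone was in 41.8% of member promoters and 4.26% of all, CTTTT in 21.5% and 3.63%, CTTCC in 32.9% and 6.97%, and CTCTT in 32.9% and 4.18%. Over the whole window of 300 bases and on both strands, CCGGAAG, a word of the ETS factors, was in 34.2% of member promoters and 10.3% of all. AGATGGC, a word of the factor YY1, was in 11.4% and 5.41%. Any of the 4 pyrimidine words was held by 26 of the 29 matched members that rose with IgA against IgG and by 27 of the 34 matched members that were not called there. A match is a string of letters, and its use by the cell was not measured.

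The libraries held from 27920733 to 42371474 counts in the first table and from 39254350 to 47381836 in the second. IgA replicate 3 stood apart, with 19.1% of its counts in mitochondrial genes against 5.75% to 8.32% in the other 8 libraries of its table. Of 8 carcinoma markers, PAX8 (at least 16861 counts), KRT8 (at least 15900) and MUC16 (at least 27646) were high in every library, and WT1 was lowest, at 692 to 6330 counts in the first table, while CD3E of T cells had 0 to 2 counts, CD79A of B cells 0 to 11, LYZ of myeloid cells 0 to 18 and DCN of fibroblasts 0 to 16, with the collagens COL1A1 and COL1A2, which also mark fibroblasts, at 514 to 1065 and 1404 to 3160. In bulk RNA, fewer cells with a transcript and less of it per cell cannot be told apart.

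Levels of the members in untreated cells covered a wide range. Per kilobase of coding sequence, the scale used here whenever genes are ranked against each other, RPS16 was highest in both tables (the members named for their levels were chosen by these values), at 242373 ± 12523 normalised counts (SD, n = 3) in the first and 242320 ± 9839 in the second. RPS16 is a small subunit protein near the decoding centre. Other high members in the first table were RPL41, the shortest of these proteins, at 143733 ± 12171, and RPL38 at 129634 ± 7227, which were both below RPS16 by more than their SDs and not apart from each other by more than their spread. The counts are of whole genes and were divided by coding length alone, so that a long untranslated part raises a gene on this scale. The coding part is 75 of 676 transcript bases in RPL41 and 210 of 1145 in RPL38, beside 438 of 631 in RPS16. At the other end RPL39 had 9584 ± 266 per kilobase, its copy RPL39L 3563 ± 43.6, RPS27L 1989 ± 26.6 and RPL36A 517.3 ± 52 in the first table. RPL17 and RPL36A share exon bases on the same strand with the readthrough genes RPL17-C18orf32 and RPL36A-HNRNPH2 in GENCODE on GRCh37, RPS10 with RPS10-NUDT3 and RPL36 with HSD11B1L, and their counts are uncertain for that reason.

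Some members gave almost no counts. RPL10L, a copy of RPL10 known from testis, had 0 counts in all 18 libraries. RPL3L, a copy of RPL3 known from heart and skeletal muscle, had 0 to 12 counts. RPS10L had 0 to 3 counts. After the filter on low counts, 78 members were tested in the first table and 79 in the second, where RPL3L also passed.

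As a share of all counts outside mitochondrial genes, the members took 6.638%, 5.452% and 5.18% in the 3 IgA libraries, 5.06%, 5.323% and 5.209% with IgG and 5.451%, 5.246% and 5.301% in untreated cells. IgA replicate 1 was above every control library and IgA replicate 3 was below 3 of the untreated and 2 of the IgG libraries, so that the groups overlapped. In the second table the share was 4.551%, 4.319% and 4.533% with the BDNF antibody, 4.317%, 4.337% and 4.47% with the TSPAN7 antibody and 4.442%, 4.44% and 4.68% in untreated cells. These 3 groups overlapped as well.

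**Figure D1:**
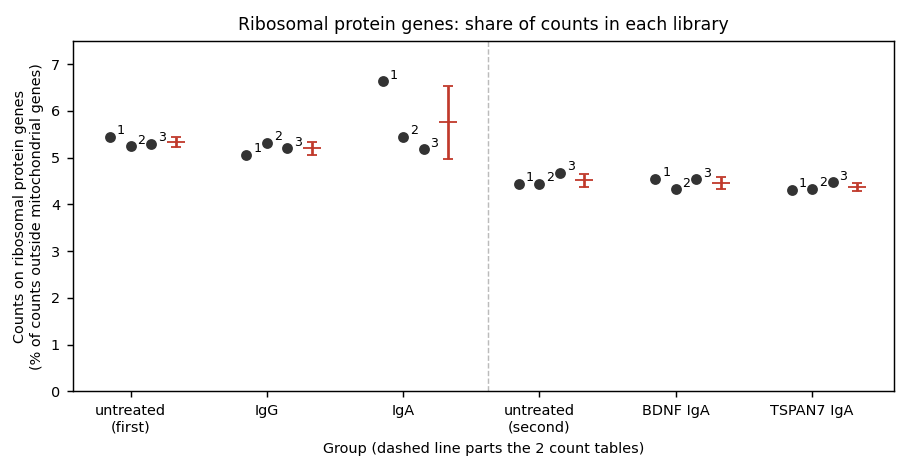
Share of counts outside mitochondrial genes that fell on the 83 ribosomal protein genes (vertical axis, percent), with 1 numbered point per library and the group mean ± SD in red (n = 3). The points of IgA lie between 5.18% and 6.638% and overlap those of IgG and untreated cells, and the 9 libraries of the second table lie between 4.317% and 4.68%.

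The comparison of IgA with IgG asks what the cells did with IgA that they did not do with another antibody class. Scaled by the trimmed mean of M-values (TMM), which sets the bulk of genes to no change, 38 of the 78 members tested rose with IgA and 0 fell (edgeR quasi-likelihood test, Benjamini-Hochberg adjusted p under 0.05). That is 48.7% higher, where 12.6% of all 18012 genes tested were called higher and 11.6% lower. Fold changes of 76 members were positive, the median log2 fold change was 0.34 against -0.01 for all genes tested, and it ran from -0.39 to 0.69. All 3 IgA libraries were above all 3 IgG libraries for 59 members (75.6%), against 19.7% of all genes. No member was lower at an unadjusted p under 0.05 in edgeR or DESeq2, and DESeq2 called 44 higher and 0 lower.

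The sizes of these counts depended on how the libraries were scaled and on single libraries, while the median stayed above 0 in each alternative run. One spread per gene was estimated over all 9 libraries, although the IgA replicates differed more among themselves than the controls did. SEs and p-values of the comparisons of IgA may therefore be too small. Fitted on the 6 libraries compared alone, 19 members were called higher and the median was 0.35. Scaled by library size alone, 1 of the 78 members was called higher (RPL36), where 873 of all 18012 genes tested were. The members' median was 0.10 and the median of all genes -0.25. The difference of 0.35 between these medians equals the one under TMM. A change of scaling moves all genes of a library alike, so this equality was fixed in advance and tests nothing. With trends on transcript length and GC content taken out of each library, 19 members were called higher and the median was 0.21. Of the 15424 genes tested in that fit, 2287 were called higher. Without IgA replicate 1, in which 74 of 78 members were above the untreated mean and their median difference from it was 0.43 (0.16 and 0.20 in replicates 2 and 3), 22 were called and the median was 0.23. Of the 18625 genes tested in that fit, 1946 were called higher. Without IgA replicate 3, 49 members were called, beside 2399 of 18614 genes, and without IgG replicate 1, 2 or 3, 15, 17 and 21 members were. Short transcripts that are not members, 1544 genes of up to 1000 bases, had a median of 0.17 in the same comparison, and within the members Spearman's rho between transcript length and log2 fold change was -0.16 (78 genes of the same libraries).

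Among the large subunit proteins 21 of 43 rose. RPL36 (chromosome 19, 5674958 to 5691886 on GRCh37, plus strand), a large subunit protein that has no counterpart in bacteria, had 32350, 22339 and 27427 normalised counts in the 3 IgA libraries, 16777, 17828 and 16344 with IgG and 17929, 18307 and 16377 in untreated cells. The lowest IgA library was above the highest of the 6 controls. Its log2 fold change against IgG was 0.69 ± 0.12 (SE), 61.2% higher (edgeR adjusted p = 0.00199), and it kept its call and direction in all 18 alternatives run. RPL19, which binds at the interface of the subunits, had 30896, 20636 and 23782 counts with IgA and 17291, 17353 and 15181 with IgG, again without overlap, and differed by 0.60 ± 0.14 (edgeR adjusted p = 0.00737).

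RPL31 sits near the exit of the peptide tunnel. It had 40677, 29482 and 38307 counts with IgA against 23730, 25435 and 23449 with IgG, a difference of 0.58 ± 0.12 (edgeR adjusted p = 0.00411). RPL26, a protein of the large subunit, had 7752, 5387 and 5436 against 3812, 3885 and 4872, or 0.56 ± 0.14 (edgeR adjusted p = 0.0136). RPL39, a short protein that lines the tunnel, had 2575, 1610 and 1823 against 1239, 1159 and 1582, or 0.59 ± 0.16 (edgeR adjusted p = 0.0194). In RPL31, RPL26 and RPL39 each IgA library was above each IgG library, by only 28 counts at the closest in RPL39, and replicate 1 was the highest of the 3. RPL19 and RPL31 lost their calls with library size alone and in none of the other alternatives. RPL26 lost its call in 5 of the 18 alternatives, among them the length and GC correction and the fits without IgG replicate 1 or 2. RPL39 lost its call in 7, among them the length and GC correction (0.33) and the fits without IgA replicate 1 (0.37) or IgG replicate 1 or 2.

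RPL5 and RPL11, which carry a small ribosomal RNA into the large subunit and bind MDM2 when ribosome assembly is disturbed, differed in what they showed. RPL11 had 24885, 20818 and 25219 counts with IgA and 17296, 17094 and 18395 with IgG, and rose by 0.43 ± 0.10 (edgeR adjusted p = 0.00835). RPL5 had 53317, 55490 and 54803 against 49109, 50930 and 51065, 0.11 ± 0.09, and was not called (edgeR adjusted p = 0.388), although its libraries did not overlap either. RPL3, at the peptidyl transferase centre, gave 0.25 ± 0.10 (edgeR adjusted p = 0.0872), and RPL10, the last protein to join the subunit, 0.20 ± 0.10 (edgeR adjusted p = 0.149). The member with the lowest fold change was RPL36A, a protein close to the exit site of tRNA, at 104.3, 142.9 and 107.4 counts with IgA and 176.4, 143.9 and 144.9 with IgG. Its IgA libraries were all below the IgG libraries, by 1 count at the closest, and its log2 fold change of -0.39 ± 0.21 was not called (edgeR adjusted p = 0.199).

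In the P stalk, the flexible arm that recruits elongation factors, all 3 members rose. RPLP2 had 22413, 17182 and 18834 counts with IgA and 13023, 14437 and 12324 with IgG, a log2 fold change of 0.55 ± 0.11 (edgeR adjusted p = 0.00353). RPLP1, its partner, had 31918, 18704 and 20831 against 15323, 16435 and 18520, or 0.51 ± 0.16 (edgeR adjusted p = 0.0388). RPLP0, which anchors both to the subunit, had 22418, 22030 and 22031 against 17592, 17511 and 18883, or 0.30 ± 0.09 (edgeR adjusted p = 0.0244). The IgA libraries lay above the IgG libraries in each of the 3, most tightly among themselves in RPLP0 and most loosely in RPLP1, where replicate 1 was far above the other two. RPLP2 lost its call with library size alone. RPLP0 lost it in 7 of the 18 alternatives, among them the length and GC correction and the fits without IgG replicate 1 or 2. RPLP1 lost it in 12, among them leaving out IgA replicate 1, where its fold change was 0.23 (edgeR adjusted p = 0.129), or any 1 of the 6 control libraries.

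Of the 30 small subunit members tested, 14 rose. RPS27A, which is made as a fusion to ubiquitin, had 17747, 13055 and 12301 counts with IgA and 10595, 11110 and 8822 with IgG, a difference of 0.50 ± 0.14 (edgeR adjusted p = 0.0187). This call was lost in 6 of the 18 alternatives, among them leaving out IgA replicate 1 (0.31, edgeR adjusted p = 0.0631) or IgG replicate 3 (0.40, edgeR adjusted p = 0.0912) and the length and GC correction (0.27, edgeR adjusted p = 0.078). RPS6, the substrate of the S6 kinases downstream of mTOR, had 73159, 43733 and 40730 against 39534, 42484 and 43995, or 0.32 ± 0.18 (edgeR adjusted p = 0.202). Its replicate 1 alone was above the controls and the other two lay among them. RPS27, a zinc finger protein of the subunit, had 44002, 32435 and 27675 against 25482, 26115 and 29354, or 0.36 ± 0.15 (edgeR adjusted p = 0.0868), with overlap.

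RPSA, a ribosomal protein that also serves as a laminin receptor, had 24797, 24410 and 22769 counts with IgA and 22843, 22794 and 27640 with IgG, a log2 fold change of -0.03 ± 0.10 (edgeR adjusted p = 0.88), and the groups overlapped. Neither of the L-suffixed copies tested in this table was called. RPS27L, a close copy of RPS27, gave 0.38 ± 0.14 (edgeR adjusted p = 0.0594), with 672.7, 552.6 and 679.3 counts with IgA, all above 549.7, 447 and 462.2 with IgG. RPL39L, a copy known from testis and tumours, gave 0.35 ± 0.17 (edgeR adjusted p = 0.144), with 866.7, 576.6 and 568.7 against 500.3, 496.2 and 586.3.

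Against untreated cells 27 of the 78 members rose with IgA and 0 fell (edgeR adjusted p under 0.05), or 34.6% where 12.9% of all genes tested were called higher and 12.1% lower. The IgA libraries are those of the comparison with IgG, so that the 22 members called higher in both are not separate evidence. The median was 0.29 against -0.01 for all genes, 73 members were positive, and all 3 IgA libraries were above all 3 untreated libraries for 50 members (64.1%), against 19.8% of all genes. One member, RPL36A, was lower at an unadjusted p under 0.05 (0.0428 in edgeR), and DESeq2 called 31 higher and 0 lower. Fitted on the 6 libraries compared alone, fewer members were called higher than with all 9, and the median was 0.29. With scaling by library size alone 1 member, RPL36, was called, where 1001 of all 18012 genes were higher. The members' median was then 0.08 against -0.22 for all genes. After the length and GC correction 17 were higher, beside 2351 of 15424 genes, with a median of 0.15, and RPL36A was lower (-0.64, edgeR adjusted p = 0.0446). Without IgA replicate 1, 16 were called, beside 2023 of 18625 genes, and the median was 0.17. Without untreated replicate 1, 2 or 3, 9, 8 and 9 were called. Without IgA replicate 3, 39 were, beside 2453 of 18614 genes.

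RPS13, which helps to form the bridge between the subunits, had 13978, 10726 and 10186 counts with IgA and 7795, 7124 and 7489 in untreated cells. The groups did not overlap, and the log2 fold change was 0.64 ± 0.13 (edgeR adjusted p = 0.00324). RPL27 had 16952, 13696 and 13624 against 10176, 10069 and 9818, or 0.56 ± 0.11 (edgeR adjusted p = 0.00363), and here the 3 untreated libraries lay close together. RPL36 was 0.64 ± 0.12 higher (edgeR adjusted p = 0.00276), RPL19 0.57 ± 0.14 (edgeR adjusted p = 0.00939) and RPLP2 0.55 ± 0.11 (edgeR adjusted p = 0.00334).

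Several members that rose against IgG missed the threshold against untreated cells. RPLP1 gave 0.34 ± 0.16 (edgeR adjusted p = 0.146), and untreated replicate 2 at 19395 counts was above IgA replicate 2 at 18704. RPL11 gave 0.25 ± 0.10 (edgeR adjusted p = 0.0784) and RPL39 0.45 ± 0.16 (edgeR adjusted p = 0.0608). RPL3, not called against IgG, was called here at 0.30 ± 0.10 (edgeR adjusted p = 0.0415), a call lost in 12 of the 18 alternatives, among them leaving out IgA replicate 1 or any 1 of the 6 control libraries, and at 0.09 with library size alone. A call in one comparison and not in the other is no test that these comparisons differ. RPS27A rose by 0.48 ± 0.14 (edgeR adjusted p = 0.0208), a call lost in 7 alternatives, among them leaving out IgA replicate 1 (0.30) or any 1 untreated library. RPLP0 rose by 0.35 ± 0.09 (edgeR adjusted p = 0.0113), a call lost in 3, 1 of them without untreated replicate 2, while RPSA (-0.07 ± 0.10), RPL5 (0.06 ± 0.09) and RPS6 (0.30 ± 0.18) were not called.

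**Figure D2:**
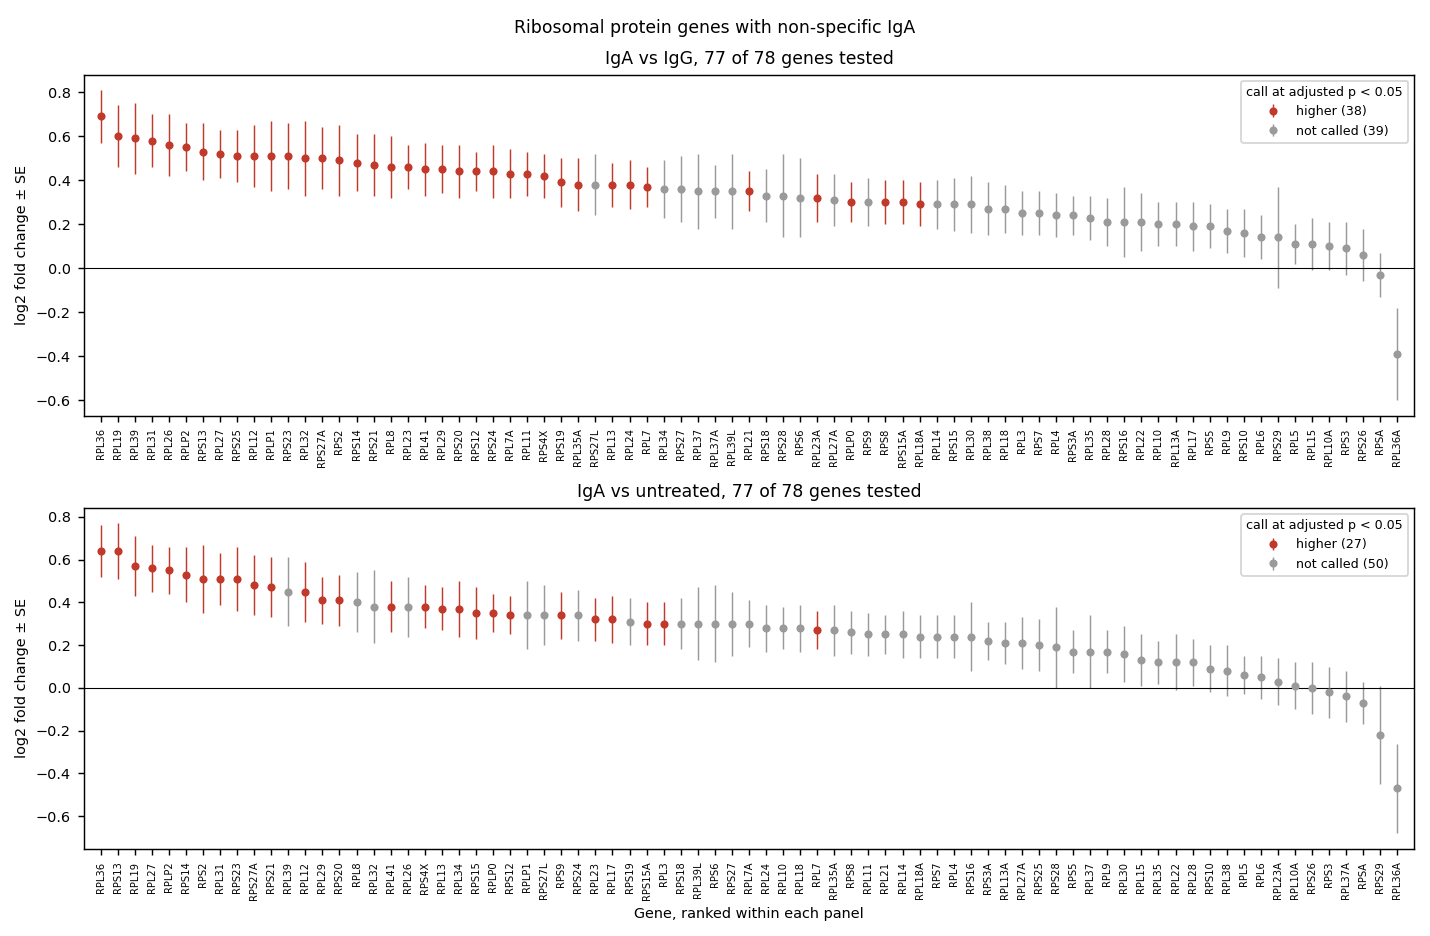
Log2 fold change ± SE (vertical axis) of 77 of the 78 ribosomal protein genes tested in the first table, ranked within the panel, for IgA against IgG (top) and IgA against untreated cells (bottom), in red where called higher at adjusted p under 0.05 and in grey where not called. The top panel has 38 red points from RPL36 at 0.69 downward and the bottom panel 27 from RPL36 at 0.64, with RPL36A lowest in both, all under TMM scaling, and with library size alone only RPL36 is called in either.

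IgG itself gave no call. Of the 78 members 0 rose and 0 fell against untreated cells in edgeR, as in all genes tested, where 0% were called higher and 0% lower. At an unadjusted p under 0.05 edgeR had 0 members higher and 3 lower, DESeq2 had the same counts, and DESeq2 called 0 after adjustment. Of all 18012 genes tested, edgeR had 89 at that level in either direction. The spread of each gene was estimated over all 9 libraries, among which the IgA libraries differed most among themselves. The lack of calls therefore does not show that IgG had no effect. The median log2 fold change was -0.05 against 0.00 for all genes, and 61 members were negative. All 3 IgG libraries were below all 3 untreated libraries for 14 members (17.9%), against 3.43% of all genes. The 3 members at an unadjusted p under 0.05 were RPL37A (-0.39 ± 0.12), RPL23A (-0.30 ± 0.11) and RPS25 (-0.31 ± 0.12), named after their values were seen.

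**Figure D3:**
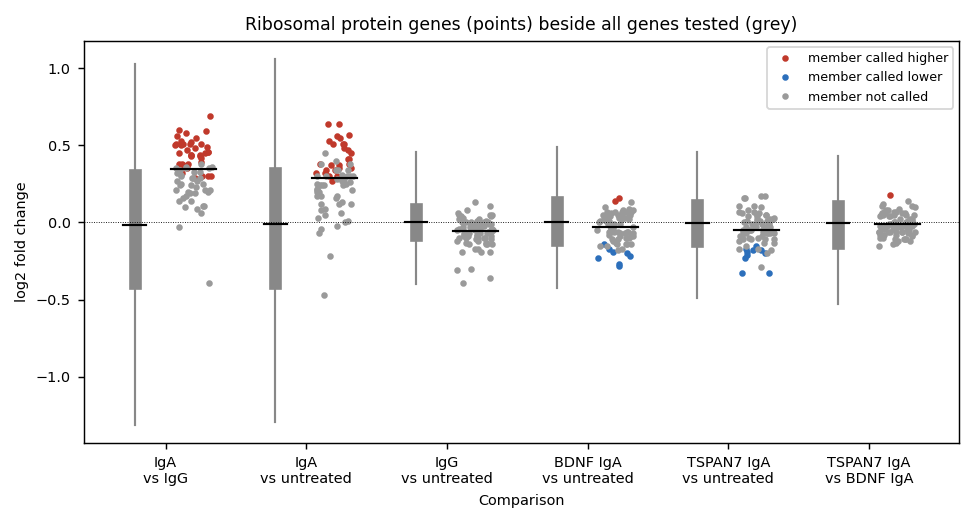
Log2 fold change (vertical axis) of each member tested (points, red called higher, blue called lower, grey not called) in the 6 comparisons, beside all genes tested, whose grey bar spans the 25th to 75th percentile, whose thin line spans the 5th to 95th, and whose black mark, like that of the points, is the median. The members' median is 0.34 and 0.29 in the comparisons of IgA, under TMM scaling, and between -0.05 and -0.01 in the other 4, and with library size alone it is 0.10 and 0.08 against -0.25 and -0.22 for all genes.

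In the second table the question is what an IgA that binds BDNF, a secreted growth factor of neurons, or TSPAN7, a membrane protein of the tetraspanin family, does to the same cells. The common dispersion, the squared variation between replicates beyond counting error, was 0.00303 against 0.0307 in the first table. In the first table the IgA libraries differed most among themselves, with a chi-square per degree of freedom between pairs of replicates of 67, 184 and 232, against 6.6 to 25 within IgG and untreated cells and 3.91 to 12.2 in the second table.

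With the BDNF antibody 2 of 79 members rose and 8 fell against untreated cells (edgeR adjusted p under 0.05). Of all 18732 genes tested 4.49% were called higher and 3.18% lower, beside 2.53% and 10.1% of the members. The median was -0.03, and the members ran from -0.28 to 0.16. All 3 libraries were below all 3 untreated libraries for 15 members (19%), against 12.0% of all genes. The count of lower members rested on single libraries, being 2 when untreated replicate 2 was left out and 2 when untreated replicate 3 was, and both higher calls were lost in 7 of the 9 fits that left out 1 library, among them those without BDNF IgA replicate 1 or 3 or untreated replicate 1 or 2.

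The lowest was RPL39L, with 804.3, 789.1 and 735.6 counts with the BDNF antibody and 929.9, 1001 and 897.6 in untreated cells, a log2 fold change of -0.28 ± 0.07 (edgeR adjusted p = 0.0134). The groups did not overlap, and the call was lost without BDNF IgA replicate 3 or untreated replicate 2. Its parent RPL39 had 1611, 1542 and 1736 against 1498, 1727 and 1986 and was not called (-0.09 ± 0.08, edgeR adjusted p = 0.527). Whether the copy and its parent differ in response was not tested.

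RPS20, a protein in the head of the small subunit, had 16657, 17507 and 16730 counts with the BDNF antibody and 19695, 19603 and 19346 in untreated cells, or -0.20 ± 0.05 (edgeR adjusted p = 0.00769), and kept its call in all 18 alternatives run. RPS25, which takes part in initiation at viral internal entry sites, had 9835, 9833 and 10503 against 10897, 11326 and 14150, or -0.27 ± 0.07 (edgeR adjusted p = 0.0164), with untreated replicate 3 far above the rest. Without that library RPS25 stood at -0.14 and was not called (edgeR adjusted p = 0.115), and its call was also lost in DESeq2 and without BDNF IgA replicate 1. RPL22, which is lost or mutated in some tumours, had 21979, 19771 and 21529 against 22251, 25111 and 26722, or -0.23 ± 0.06 (edgeR adjusted p = 0.019). RPL27A gave -0.22 ± 0.05 (edgeR adjusted p = 0.0129), with 26919, 23994 and 27171 counts, all below 28667, 30714 and 31700. RPL22 and RPL27A lost these calls without untreated replicate 2 or 3. The 2 members that rose were RPL13A, which also takes part in the silencing of inflammatory mRNAs, at 0.16 ± 0.05 (edgeR adjusted p = 0.0476), and RPL18, at 0.14 ± 0.04 (edgeR adjusted p = 0.0469). RPL18 had 19768, 18898 and 20312 counts against 17840, 17543 and 18300, without overlap.

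With the TSPAN7 antibody 0 of 79 members rose and 10 fell (edgeR adjusted p under 0.05), beside 4.46% higher and 4.08% lower among all genes tested. At an unadjusted p under 0.05 edgeR had 6 members higher and 22 lower. In either direction that is 28 of the 79 members, beside 4138 of all 18732 genes tested. DESeq2 called 0 higher and 12 lower after adjustment. The median was -0.05 and the range -0.33 to 0.17. All 3 libraries were below all 3 untreated libraries for 18 members (22.8%), against 14.0% of all genes. Of the lower members 2 were called without TSPAN7 IgA replicate 2, 5 without TSPAN7 IgA replicate 3, 4 without untreated replicate 2 and 3 without untreated replicate 3.

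RPL27A, a large subunit protein, fell furthest, with 25414, 22566 and 24329 counts against 28667, 30714 and 31700 in untreated cells, a log2 fold change of -0.33 ± 0.05 (edgeR adjusted p = 3.58e-04). RPL22 had 20808, 18533 and 19656 against 22251, 25111 and 26722, or -0.33 ± 0.06 (edgeR adjusted p = 9.93e-04). In both genes the groups did not overlap, and both kept their calls in all 18 alternatives run. The log2 fold change of RPS27 was -0.23 ± 0.06 (edgeR adjusted p = 0.0256), with 21376, 19185 and 21216 counts against 22038, 23690 and 26855.

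RPL38, which is known to steer the translation of Hox mRNAs, had 23000, 20596 and 22259 counts against 23293, 25490 and 27308, or -0.21 ± 0.05 (edgeR adjusted p = 0.0177). RPL35A, a protein whose loss causes Diamond-Blackfan anaemia, had 9643, 8976 and 9416 against 9994, 10926 and 11222, or -0.20 ± 0.05 (edgeR adjusted p = 0.0162). RPSA fell by 0.15 (SE 0.05, edgeR adjusted p = 0.0489), from 20546, 21944 and 22367 in untreated cells to 20079, 18290 and 20020. In RPL38, RPL35A and RPSA the closest pair of libraries across the groups was near, and untreated replicate 1 was the lowest of its group in each. RPL38, RPL35A and RPS27 each lost their calls without TSPAN7 IgA replicate 2 or 3 or untreated replicate 2 or 3, and RPS27 stood at -0.15 without untreated replicate 3. RPSA lost its call in 6 of the 18 alternatives, which include those 4 fits. RPS27A (0.17 ± 0.06, edgeR adjusted p = 0.0957), RPLP2 (0.08 ± 0.05), RPL5 (-0.03 ± 0.04) and RPL11 (-0.09 ± 0.05) were not called.

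Both comparisons use the same 3 untreated libraries, in which 18, 32 and 67 of the 79 members were above the untreated mean. The members called lower with both antibodies were 5 of the 8 and 5 of the 10, which share those controls and are not separate evidence. Compared with each other, without the untreated libraries in the contrast, the TSPAN7 antibody had 1 member higher than the BDNF antibody and 0 lower (edgeR adjusted p under 0.05), where 3.42% of all genes were higher and 4.50% lower. At an unadjusted p under 0.05 edgeR had 3 members higher and 5 lower, beside 4222 of all 18732 genes tested in either direction. DESeq2 called 2 members higher and 2 lower. The 1 member was RPL27, with 13538, 14786 and 15560 counts with the TSPAN7 antibody and 13201, 13219 and 12262 with the BDNF antibody, or 0.18 ± 0.06 (edgeR adjusted p = 0.0498). Its groups did not overlap, and the call was lost in 5 of the 9 fits that left out 1 library, those without BDNF IgA replicate 1 or 3, TSPAN7 IgA replicate 2 or 3 or untreated replicate 1.

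**Figure D4:**
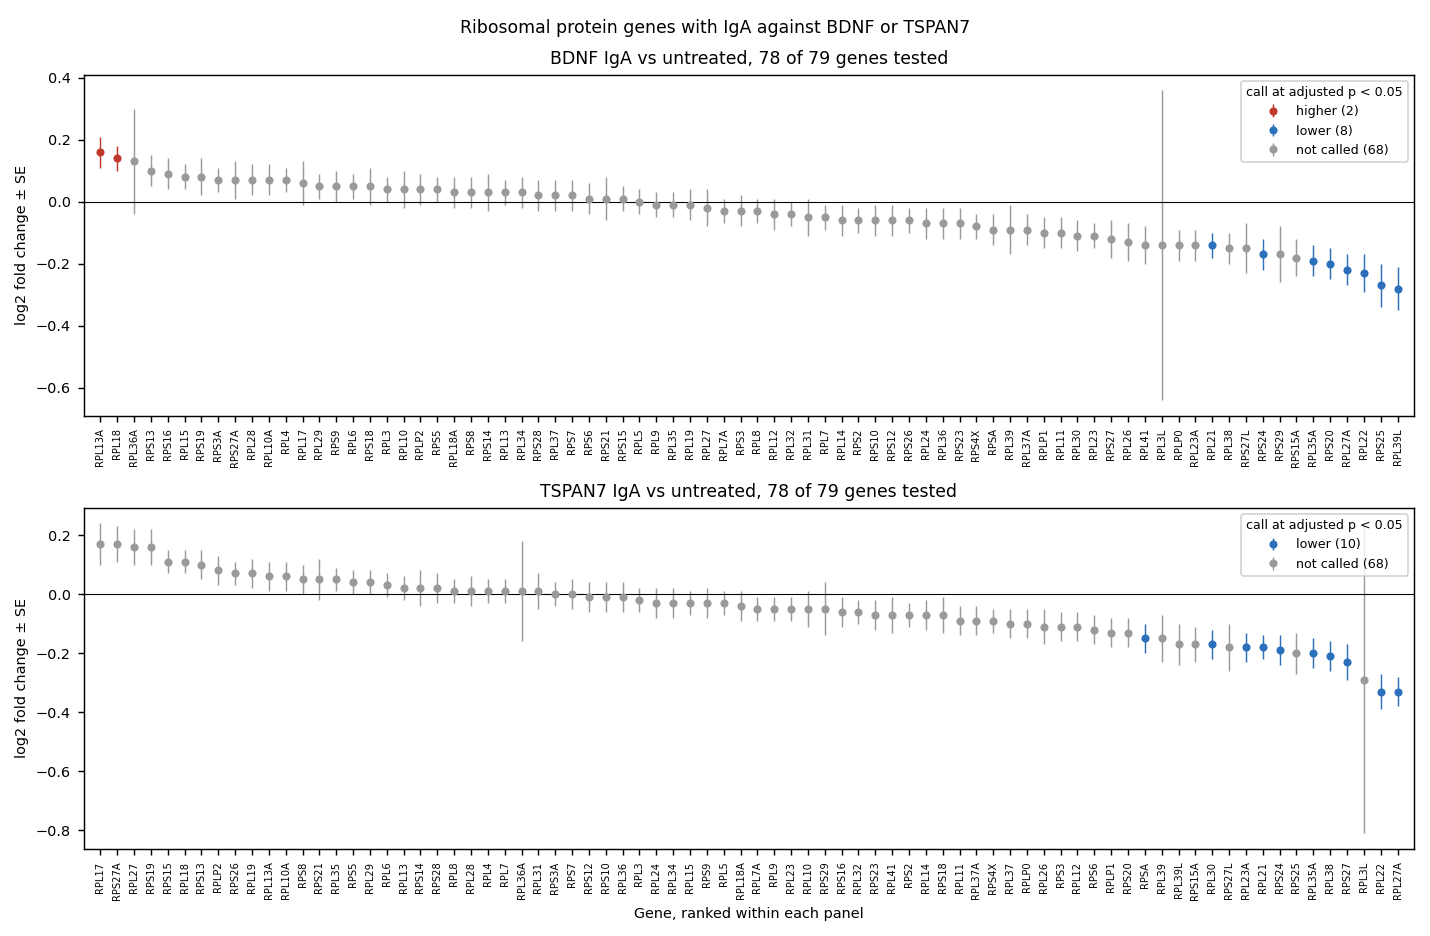
Log2 fold change ± SE (vertical axis) of 78 of the 79 ribosomal protein genes tested in the second table, ranked within the panel, for the BDNF antibody (top) and the TSPAN7 antibody (bottom) against the same untreated libraries, in red where called higher, blue where called lower and grey where not called. Most members lie within 0.2 of 0, with 2 red and 8 blue points in the top panel and 10 blue points in the bottom panel, where RPL27A and RPL22 are lowest at -0.33.

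Genes around the family were read from lists. Of the 6 ribosomal protein genes that the name rule leaves out, 3 rose with IgA against IgG, where all genes gave 12.6%. FAU, a fusion of a ubiquitin-like protein to a small subunit protein, rose by 0.38 ± 0.11 (edgeR adjusted p = 0.0264), and RPL26L1, a close copy of RPL26, by 0.46 ± 0.14 (edgeR adjusted p = 0.0287). Without IgA replicate 1, 1 of the 6 was called, and 0 with scaling by library size alone.

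Other genes whose mRNAs carry a TOP tract are mostly translation factors. Of 20 tested, 12 rose with IgA against IgG and 9 against untreated cells, where 12.6% and 12.9% of all genes were higher, with medians of 0.32 and 0.30 against -0.01 and -0.01 for all genes, and edgeR called 0 lower in either (0 at an unadjusted p under 0.05, and 0 by DESeq2). TPT1, a growth-related tumour protein, rose by 0.64 ± 0.11 against IgG (41429 ± 5705 and 26516 ± 955 counts, edgeR adjusted p = 0.00166). EEF1B2, an exchange factor of elongation, rose by 0.65 ± 0.21 (edgeR adjusted p = 0.0371) and EEF1D, another, by 0.43 ± 0.10 (edgeR adjusted p = 0.00727). HNRNPA1, an RNA-binding protein of the nucleus, rose by 0.47 ± 0.12 (edgeR adjusted p = 0.0112). VIM, the intermediate filament vimentin, is on the list for its TOP tract and not for translation, and rose by 1.29 ± 0.22 (56497 ± 17009 and 23137 ± 5594, edgeR adjusted p = 0.00133). With library size alone 2 and 1 were called, beside 873 and 1001 of all 18012 genes, with medians of 0.09 and 0.09. Without IgA replicate 1, 8 and 6 were called, beside 1946 and 2023 of 18625 genes.

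The list of mTOR components and TOP regulators gave 0 higher and 6 lower of 18 against IgG, where 11.6% of all genes were lower. Against untreated cells it gave 0 higher and 7 lower, where 12.1% of all genes were lower (edgeR, with 2 and 1 higher at an unadjusted p under 0.05 in the 2 comparisons, and 0 higher by DESeq2). The lower calls were 5 and 5 without IgA replicate 1, beside 1781 and 1806 of 18625 genes. With library size alone they were 7 and 8, beside 3631 and 3296 of all 18012 genes. Without IgA replicate 3, 1 gene was called higher in each comparison beside 6 and 7 lower. The medians of the list were then -0.09 and -0.04, against -0.16 and -0.13 in the fit as reported. MTOR, the kinase itself, fell by 0.44 (SE 0.10, 5335 ± 443 against 7238 ± 533 counts with IgG, edgeR adjusted p = 0.00629). RPTOR, the scaffold that brings substrates to it, fell by 0.65 (SE 0.12, edgeR adjusted p = 0.002). TSC2, which inhibits the pathway, fell by 0.67 (SE 0.10, edgeR adjusted p = 7.66e-04). EIF4EBP2, which represses cap-dependent translation until mTOR phosphorylates it, fell by 0.76 (SE 0.15, edgeR adjusted p = 0.00339). These genes act for and against the pathway, and protein activity was not measured.

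Of 40 genes of ribosome biogenesis and RNA polymerase I, 6 rose and 3 fell against IgG, or 15% and 7.5% beside 12.6% and 11.6% of all genes, with a median of 0.09. With scaling by library size alone the median was -0.15 against -0.25 for all genes. In that fit 1 rose and 7 fell, beside 873 and 3631 of all 18012 genes. TAF1A, a subunit of the initiation factor of RNA polymerase I, rose by 1.26 ± 0.16 (542 ± 67 against 226.5 ± 16.4 counts, edgeR adjusted p = 1.73e-04). POLR1A, the largest subunit of the polymerase, fell by 0.43 (SE 0.12, edgeR adjusted p = 0.0174), and RRS1, an assembly factor of the large subunit, by 0.51 (SE 0.13, edgeR adjusted p = 0.0142). Without IgA replicate 1, 1 of the 40 was lower, beside 1781 of 18625 genes, and without replicate 2, 6 were, beside 2766 of 18542. Without replicate 3, 10 were higher, beside 2399 of 18614.

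Genes of the mitochondrial ribosome gave 5 higher and 4 lower of 76 against IgG (6.58% and 5.26%, beside 12.6% and 11.6% of all genes), with a median of 0.10. MRPL33 rose by 0.58 ± 0.11 (edgeR adjusted p = 0.00282) and MRPS16 fell by 0.48 (SE 0.11, edgeR adjusted p = 0.00833). Of the processed pseudogenes of the members, 800 in the table, 89 were tested, of which 13 were called higher (14.6%, beside 12.6% of all genes) and 0 lower in edgeR (25 and 4 at an unadjusted p under 0.05, 15 and 1 in DESeq2), with a median of 0.38. They share sequence with the members, and their counts are uncertain for that reason.

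In the second table the lists differed in how many of their genes were called. Of the 20 TOP genes 1 rose with the BDNF antibody (5%, beside 4.49% of all genes). It was EIF4A2, an initiation factor, at 0.26 ± 0.05 (edgeR adjusted p = 0.00101). With the TSPAN7 antibody edgeR called 0 TOP genes in either direction, and DESeq2 0 higher and 1 lower. At an unadjusted p under 0.05 edgeR had 1 higher and 4 lower there, beside 4138 of all 18732 genes in either direction. Of the 40 biogenesis genes, 0 rose and 4 fell with the BDNF antibody (10% lower, beside 3.18% of all genes). At an unadjusted p under 0.05 edgeR had 0 higher and 18 lower, beside 4131 of all 18732 genes tested in either direction. Among the biogenesis genes called lower were RRS1, by 0.31 (SE 0.06, edgeR adjusted p = 0.00396), and NCL, the nucleolar protein nucleolin, by 0.16 (SE 0.05, edgeR adjusted p = 0.04). Of 76 genes of the mitochondrial ribosome 7 fell with the BDNF antibody (9.21%, beside 3.18% of all genes), led by MRPL27 at -0.31 ± 0.06 (edgeR adjusted p = 0.00187). Apart from DESeq2, no alternative was run on the lists in this table, nor on the mitochondrial and pseudogene lists in the first. The dependence of these list counts on single libraries was not tested. Of the 18 mTOR components and TOP regulators, 2 rose and 2 fell with the TSPAN7 antibody. That is 11.1% each way, beside 4.46% higher and 4.08% lower among all genes.

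**Figure D5:**
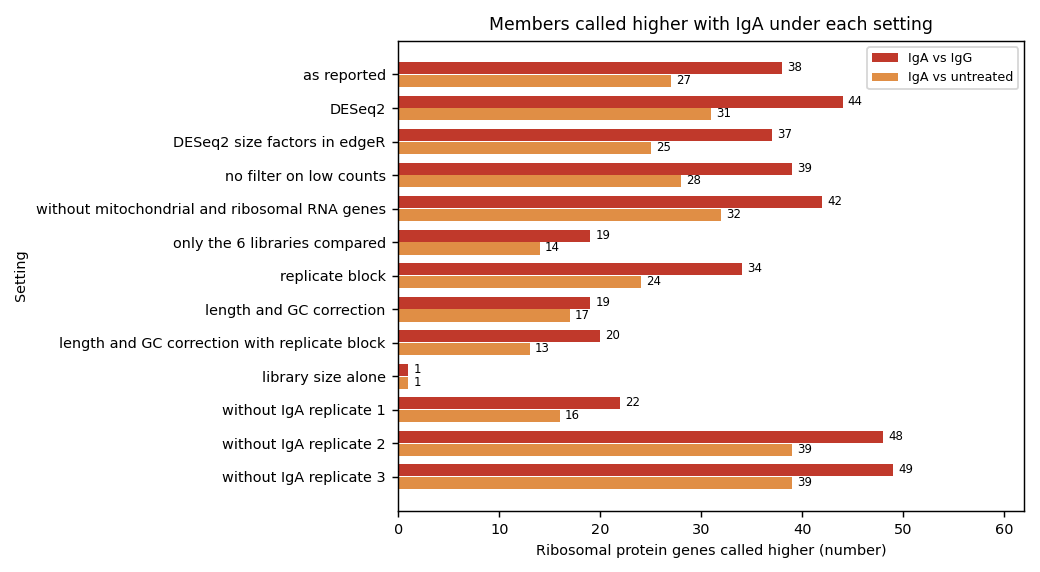
Number of ribosomal protein genes called higher (horizontal axis) for IgA against IgG (red) and against untreated cells (orange) under the fit as reported and each alternative (vertical axis), the last 3 leaving out 1 IgA library. Counts run from 1 and 1 with library size alone to 49 without IgA replicate 3 and 39 without IgA replicate 2 or 3, and fits that leave out a control library are not drawn. With library size alone 873 and 1001 of all 18012 genes tested were called higher.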

How the data were processed

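OVCAR3 libraries were made from total RNA of trypsinised cells with a kit for degraded RNA. According to the study's methods, the authors trimmed paired reads of 75 bases with cutadapt, aligned them with STAR to GRCh37 and counted uniquely mapped reads per GENCODE gene with featureCounts, whereas the submitters' processing notes name bcl2fastq 2.20.0.422, cutadapt 1.8.1, HTSeq 0.6.1 and hg19. The deposited values are raw counts per gene symbol, not normalised. The second table had 57820 rows, of which 2055 exact repeats were removed.

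Each table was fitted on its own, all 9 libraries together and without covariates, with edgeR 4.0.16 in R 4.3.3 (filterByExpr, TMM, quasi-likelihood F test, Benjamini-Hochberg over all genes tested, threshold 0.05). Normalised counts put every library at the average of the effective library sizes, and the SE is the absolute log2 fold change over the square root of F. The fit was tested on simulated counts. Positions, coding lengths and overlaps came from GENCODE on GRCh37 (85.6% and 84% of tested genes had a length), promoters from RefSeq on GRCh38.p14. Alternatives were DESeq2 1.42.0, other scalings and filters, a correction for length and GC content, a replicate block, 6 libraries only and leaving out each library. The members and lists were chosen with earlier results of these data known. Named in each comparison were called members with the 5 highest and the 5 lowest log2 fold changes, given a mean of at least 50 normalised counts in one group, a fixed set of P stalk, regulatory and paralog members, and up to 5 called genes of each list. Some genes are not reported here. Counts limit precision only for members near 0, where intervals would cover counting error only.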

Additional observations from a re-analysis of the deposited data

How the results depend on the processing

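Among the named members, no call in the fit as reported or in an alternative reversed its direction. Counts over all members and lists could change sides. With library size alone, 1 member was called higher for IgA against IgG (median 0.10) and 1 against untreated cells (0.08), 0 higher and 1 lower for TSPAN7 against BDNF IgA. The length and GC correction gave 19 higher (0.21) and 17 higher with 1 lower (0.15) in the first table, and 2 higher for TSPAN7 IgA against untreated cells and 0 higher and 2 lower against BDNF IgA. The 6 libraries compared alone gave 19 and 14 higher for IgA, 0 higher for BDNF IgA, 2 higher for TSPAN7 IgA, and 0 higher for TSPAN7 against BDNF IgA. With no filter on low counts, 13 fell with BDNF IgA, 3 rose with TSPAN7 IgA and 2 were lower against BDNF IgA. DESeq2 gave 2 higher and 2 lower there, and DESeq2 size factors gave 0 higher with BDNF IgA. The causes were not tested.

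Whether replicate numbers pair the samples was not settled. Same-numbered libraries had correlations of deviations from -0.07 to 0.25, and differently numbered ones from -0.21 to 0.14. Deviations from the mean of only 3 libraries cannot exclude pairing. With the replicate block 34 and 24 members were higher with IgA, 9 and 12 lower with BDNF and TSPAN7 IgA, and 1 lower for TSPAN7 against BDNF IgA. The block with the length and GC correction gave 20 (0.21) and 13 (0.15) higher with IgA, 3 higher with TSPAN7 IgA and 4 lower for TSPAN7 against BDNF IgA.

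Leaving out 1 library gave 15 to 49 higher for IgA against IgG, 8 to 39 higher and 0 to 1 lower against untreated cells, 0 to 3 higher and 2 to 11 lower with BDNF IgA, 0 to 3 higher and 2 to 14 lower with TSPAN7 IgA, and 0 to 2 higher and 0 to 7 lower for TSPAN7 against BDNF IgA. Depth limits only the members near 0 counts.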
